A study of Rattus norvegicus with 15 samples.

Results

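Among the heart arrays of this rat study, some carried far more atrial muscle transcript than others of the same treatment, and the division between these arrays is described here. Of 15 arrays, the 10 from rats killed 12 h after induction of severe acute pancreatitis (SAP) and from sham-operated rats were divided by the measured levels of Myl4, the atrial essential myosin light chain, and Sln, sarcolipin, a small membrane peptide that inhibits the sarcoplasmic reticulum calcium pump. An array was called atrium-rich where both levels were above 12 log2, and atrium-poor otherwise. This gave 4 atrium-rich arrays, which were SAP 12 h replicates 3 and 4 and sham replicates 2 and 3, and 6 atrium-poor arrays, 3 from each group. All animals were male Sprague-Dawley (SD) rats of 8-10 weeks, per the labels. To induce SAP, sodium taurocholate at 5% was infused against the flow into the ducts of pancreas and bile, and the labels give sham surgery for the control rats without describing it. The 5 arrays taken 24 h after SAP were not divided, and their levels are given only as values. The labels name the tissue as heart and do not state which chambers were taken. Ischemia/reperfusion is named in the series title, and mice in a note on RNA extraction; the fields of the single samples, which give SAP or sham surgery in rats, were followed.

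Atrial and ventricular heart muscle build their contractile filaments from different myosin light chains, Myl4 and Myl7 in the atria and Myl3 and Myl2 in the ventricles. The calcium pump is restrained mainly by sarcolipin in atrial muscle and by phospholamban (Pln) in ventricular muscle. Atrial muscle cells also store atrial natriuretic peptide, the product of Nppa, in secretory granules. Fat, valve leaflets, the roots of the great vessels, nerve ganglia and the sinoatrial and atrioventricular nodes lie on or beside the atria.

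Levels are normalised log2 expression values, so a difference of 1 is a 2-fold difference. Because the arrays were chosen by 2 of the same measurements, every difference between the classes is a description and carries no test. The difference given for a gene is the atrium-rich minus the atrium-poor level with the treatment group as a covariate, which here is the mean of the differences within SAP 12 h and within sham. A gene is said to separate the classes where each atrium-rich array lay on the same side of each atrium-poor array within SAP 12 h and again within sham. In bulk tissue, fewer cells of a type and less RNA per cell cannot be told apart. The groups' arrays had medians between 5.90 and 5.98 log2, and an array's mean correlation with the others of its group was between 0.987 and 0.994. As a guide to background, 10 lung epithelial genes had a median level of 4.47 log2.

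The genes that chose the arrays left a wide gap. Sln was 17.45 and 16.18 log2 in the atrium-rich SAP 12 h arrays and 15.98 and 13.46 log2 in the atrium-rich sham arrays, against a lowest, median and highest level of 4.01, 6.06 and 8.28 log2 in the 6 atrium-poor arrays. Myl4 was 16.16, 15.14, 14.96 and 13.49 log2 in the same atrium-rich arrays, against 4.66, 5.09 and 8.49 log2. The array nearest the threshold from above was sham replicate 3, and the nearest from below was sham replicate 5, at 8.49 log2 for Myl4 and 8.28 log2 for Sln. In the SAP 24 h arrays Sln lay between 4.29 and 6.11 log2 and Myl4 between 4.41 and 5.16 log2.

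The promoters of the 3 atrial muscle genes Nppa, Myl7 and Myl4 are shown because their transcripts separated the classes, which for Myl4 the choice of arrays fixed; the sequences are the 250 bases before each transcription start in RefSeq (GRCr8), 5′ to 3′ on the gene's strand. They lie at chr5:163711934-163712183 (plus strand), chr14:84996625-84996874 (minus strand) and chr10:89975900-89976149 (plus strand), in that order. Capitals mark the motifs searched on both strands: GATAA, read by GATA factors; AAGTG, the core read by NKX2-5; AGGTGT, read by T-box factors; and TATAAA, the TATA box.
Nppa: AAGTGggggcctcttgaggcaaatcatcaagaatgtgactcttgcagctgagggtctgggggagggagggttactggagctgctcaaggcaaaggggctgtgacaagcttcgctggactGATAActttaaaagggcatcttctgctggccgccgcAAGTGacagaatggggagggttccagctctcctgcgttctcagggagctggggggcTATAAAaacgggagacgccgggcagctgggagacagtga
Myl7: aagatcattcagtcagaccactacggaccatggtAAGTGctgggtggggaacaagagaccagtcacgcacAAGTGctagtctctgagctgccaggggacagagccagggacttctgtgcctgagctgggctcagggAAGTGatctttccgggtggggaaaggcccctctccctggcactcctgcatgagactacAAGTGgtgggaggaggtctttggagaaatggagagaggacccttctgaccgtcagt
Myl4: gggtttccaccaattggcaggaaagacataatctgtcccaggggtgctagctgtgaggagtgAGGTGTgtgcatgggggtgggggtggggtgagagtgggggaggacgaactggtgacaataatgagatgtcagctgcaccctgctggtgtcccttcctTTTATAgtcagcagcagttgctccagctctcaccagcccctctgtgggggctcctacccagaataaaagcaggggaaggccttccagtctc
The Nppa window held 2 AAGTG, 1 GATAA and 1 TATAAA, the last 39 to 34 bases before the start. The Myl7 window held 4 AAGTG and no match to the other motifs, and the Myl4 window 1 AGGTGT and 1 TATAAA on the opposite strand. No marked motifs overlapped. These letters are common: of 33469 RefSeq promoters of this length, 40.6% held AAGTG, 23.5% GATAA, 12.9% TATAAA and 11.6% AGGTGT on either strand. Of the 18 measured genes of the atrial list 11 had a promoter entry, and AAGTG was in 4 of them, GATAA in 4, TATAAA in 3 and AGGTGT in 1.

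Further atrial muscle transcripts followed the division, and among those that separated the classes, Myl7 and Nppa were the furthest apart after Sln and Myl4. Of the 18 measured genes of the atrial muscle list, 8 separated the classes upward and 0 downward, against 1.65% of all 23188 probe sets upward and 1.53% downward. These shares over all probe sets are the background for the counts of separating members in every list below. Without Myl4 and Sln, 6 of 16 separated, and the median difference of the 16 was 0.75 log2, against -0.02 over all probe sets. The list was chosen with earlier results of these data known, so these values only describe it.

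**Figure D1:**
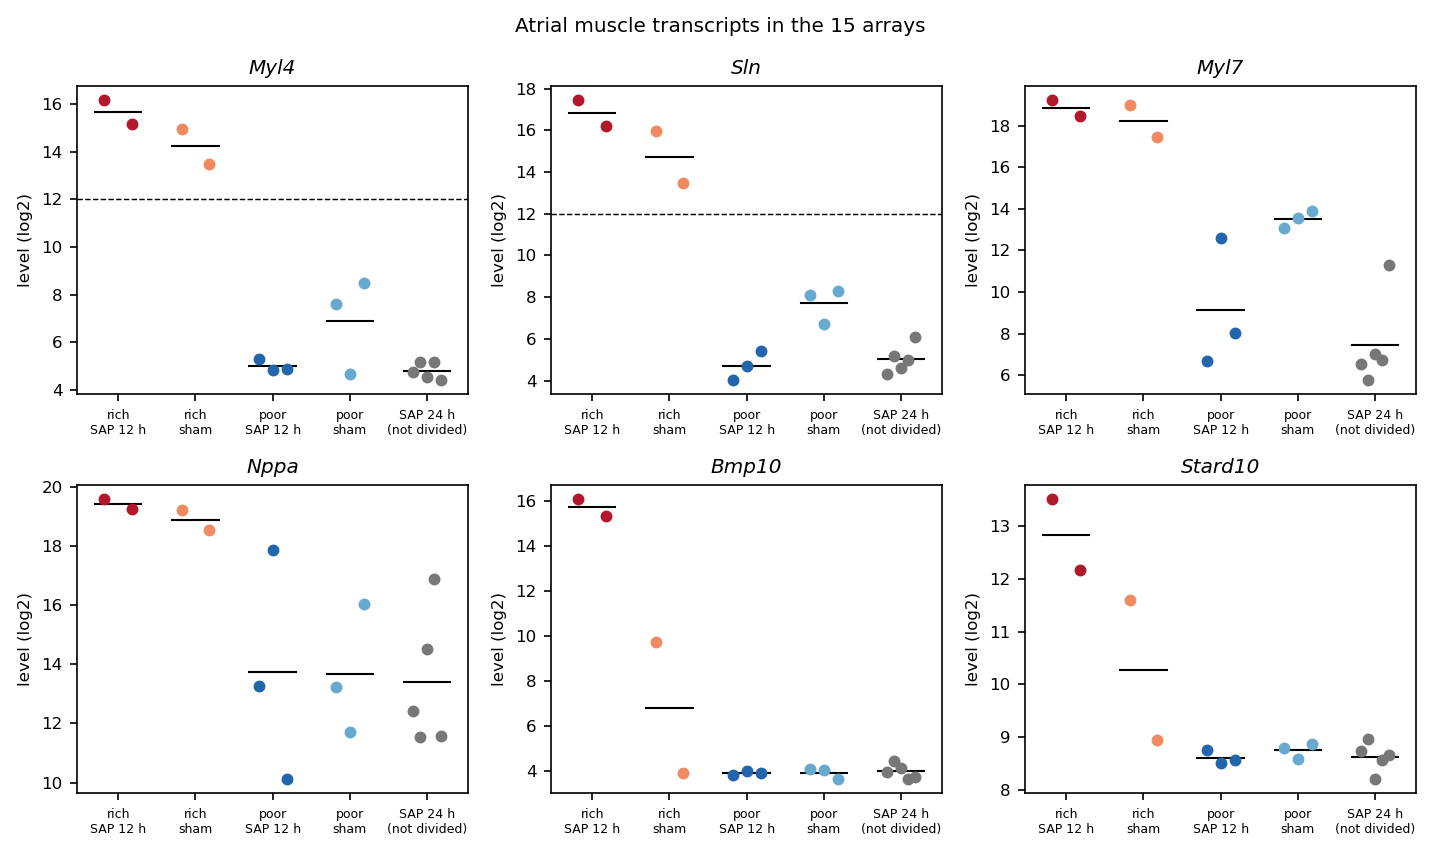
Levels of 6 atrial muscle transcripts (log2, vertical axis) in each of the 15 arrays, by array class and group; points are arrays, bars are means, and the dashed line in the Myl4 and Sln panels is the threshold of 12. Myl7, Nppa and Stard10 lie higher in every atrium-rich array than in the atrium-poor arrays of the same group, whereas Bmp10 is at 3.88 log2 in 1 atrium-rich sham array.

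Myl7, the atrial regulatory light chain, was 19.24 and 18.45 log2 in the atrium-rich SAP 12 h arrays and 19.02 and 17.47 log2 in the atrium-rich sham arrays. In the atrium-poor arrays it was 6.69, 12.62 and 8.02 log2 at SAP 12 h and 13.08, 13.54 and 13.90 log2 in sham. The classes did not overlap, and the atrium-poor sham arrays lay above the atrium-poor SAP 12 h arrays. The difference was 7.24 log2, or 151-fold, with 9.73 within SAP 12 h and 4.74 within sham. For Myl7, the label atrium-poor therefore means less transcript and not none. In the same atrium-poor SAP 12 h arrays, Myl4 was 5.30, 4.84 and 4.89 log2 and Sln 4.01, 4.71 and 5.42 log2, near the background guide. In the atrium-poor sham arrays Myl4 was 7.59, 4.66 and 8.49 log2 and Sln 8.12, 6.70 and 8.28 log2. Of these only Myl4 in sham replicate 4 was near the guide. SAP 24 h arrays had Myl7 levels between 5.75 and 11.30 log2.

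Nppa was 19.58, 19.24, 19.22 and 18.54 log2 in the atrium-rich arrays, against a lowest, median and highest level of 10.11, 13.24 and 17.85 log2 in the atrium-poor arrays. No arrays overlapped, and the atrium-poor arrays spread over more than 7 log2 units, with SAP 12 h replicate 2 highest and sham replicate 5 next at 16.03 log2. The difference was 5.45 log2, 43.7-fold, and was 5.67 within SAP 12 h and 5.23 within sham. The highest value of the whole table is 19.83 log2, so Myl7 and Nppa in the atrium-rich arrays lay near the top of the scale. Nppb, which encodes B-type natriuretic peptide and is also made in ventricular muscle, did not separate the classes. It was 17.82, 16.82, 18.19 and 17.56 log2 in the atrium-rich arrays, against 14.52, 15.57 and 18.47 log2, and its highest array was the same atrium-poor SAP 12 h replicate 2.

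Bmp10, a growth factor known in mouse from the right atrium, did not mark every atrium-rich array. Its levels were 16.09 and 15.34 log2 in the atrium-rich SAP 12 h arrays and 9.72 and 3.88 log2 in the atrium-rich sham arrays, against 3.64, 3.94 and 4.08 log2 in the atrium-poor arrays. Sham replicate 3 thus stood at the atrium-poor level for Bmp10 while its Myl7 was 17.47 log2. The difference was 7.35 log2, above that of Myl7, but with overlap, and was 11.82 log2 within SAP 12 h and 2.88 log2 within sham.

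Further atrial genes separated the classes by less. Stard10, a phospholipid transfer protein, was 13.51, 12.16, 11.59 and 8.94 log2 in the atrium-rich arrays, against 8.51, 8.67 and 8.86 log2. Mybphl, a myosin-binding protein known in mouse from the atria, was 10.18, 6.87, 7.51 and 5.46 log2, against 4.08, 4.51 and 4.67 log2. Both separated the classes, by 2.87 and 3.03 log2, and in both sham replicate 3 was the atrium-rich array nearest the atrium-poor ones. Tbx5, a transcription factor of atrial and left ventricular muscle, was 11.22, 9.54, 9.09 and 8.94 log2 in the atrium-rich arrays, against 7.76, 8.07 and 8.65 log2. Cacna1g, a T-type calcium channel, was 6.45, 5.43, 5.71 and 6.01 log2, against 4.44, 5.00 and 5.34 log2. These differences were 1.58 log2 for Tbx5 and 0.96 log2 for Cacna1g.

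Other genes of the list overlapped between the classes. Kcnj3 and Kcnj5 encode the subunits of the acetylcholine-gated potassium channel, and their differences were 1.01 and 0.47 log2. Nr2f2, an atrial identity factor in mouse, differed by 0.54 log2. Kcna5, the ultrarapid potassium channel, and Gja5, an atrial gap junction gene, had differences of -0.21 and -0.16 log2.

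In the list of natriuretic peptide processing and secretory granule genes, 1 of 14 separated the classes upward and the median difference was 0.02 log2. That gene was Pam, the amidating enzyme that is a main membrane protein of atrial granules. It was 17.89, 17.19, 17.33 and 16.99 log2 in the atrium-rich arrays, against 16.70, 16.90 and 16.97 log2, a difference of 0.48 log2. Npr3, the clearance receptor of the natriuretic peptides, differed by 1.18 log2 with overlap, and Corin, the protease that activates the precursor of atrial natriuretic peptide, by 0.23 log2 with overlap.

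Fat transcripts were higher in the same arrays. Car3, carbonic anhydrase 3, an abundant enzyme of fat cells, was 10.52 and 10.69 log2 in the atrium-rich SAP 12 h arrays and 8.48 and 11.01 log2 in the atrium-rich sham arrays, against a lowest, median and highest level of 4.75, 5.12 and 6.52 log2 in the atrium-poor arrays. Adipoq, the fat cell hormone adiponectin, was 10.85, 9.47, 8.75 and 11.14 log2, against 5.03, 5.27 and 7.52 log2. Neither gene overlapped between the classes, and SAP 24 h arrays lay between 4.78 and 5.41 log2 for Car3 and between 4.17 and 5.25 log2 for Adipoq. The measured differences were 4.71 log2 for Car3 and 4.33 log2 for Adipoq. Most atrium-poor levels of both lay at or below the level of Ager, a lung epithelial gene, at 5.69 to 6.46 log2 in the atrium-poor arrays, so no fold is given. Sham replicate 3, which had the lowest Myl4, Sln, Myl7 and Nppa of the atrium-rich arrays, had the highest Adipoq and Car3 of all 4.

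Most other fat genes differed little. Of 25 measured members 5 separated the classes upward and 0 downward, against 1.65% of all probe sets upward, and the median difference was 0.12 log2. Thrsp, a regulator of fatty acid synthesis, differed by 1.80 log2, the fat cell hormone resistin (Retn) by 0.85 log2 and Pck1, of glycerol synthesis, by 0.34 log2, the last at levels of 3.33 to 3.63 log2 in the atrium-rich arrays. Cfd (adipsin) differed by 1.09 log2, the lipid droplet gene Cidec by 0.73 log2 and Gpd1 by -0.57 log2, each with overlap.

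Among all named genes that separated the classes, those with the largest differences after the muscle and fat genes were those of 2 receptors, a complement component and a matrix protein. Rxfp1, the relaxin receptor, was 12.00, 9.76, 11.02 and 10.19 log2 in the atrium-rich arrays, against 6.49, 7.02 and 8.38 log2, a difference of 3.51 log2. Epha4, an ephrin receptor kinase, was 11.26, 9.58, 9.05 and 7.55 log2, against 5.25, 5.75 and 6.66 log2, a difference of 3.49 log2. In both genes the lowest atrium-rich array stood clear of the highest atrium-poor array. C6, a terminal complement component, was 10.61, 9.13, 6.64 and 6.52 log2, against 4.33, 5.02 and 5.40 log2. Epyc, a small proteoglycan of cartilage, was 8.30, 9.27, 5.44 and 6.93 log2, against 4.28, 4.44 and 5.02 log2. C6 and Epyc were higher in the atrium-rich SAP 12 h arrays than in the atrium-rich sham arrays, with class differences of 3.28 and 2.95 log2.

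Many connective tissue transcripts were higher in the atrium-rich arrays. Of the 28 measured genes of fibrillar collagen and matrix, 12 separated the classes upward and 0 downward, and 22 had a positive difference within both groups, or 78.6%, against 23.2% of all probe sets. The median difference was 1.01 log2, with 1.08 within SAP 12 h and 0.77 within sham. The mean level of the list was between 9.38 and 10.06 log2 in the atrium-rich arrays and between 8.05 and 9.30 log2 in the atrium-poor arrays.

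**Figure D2:**
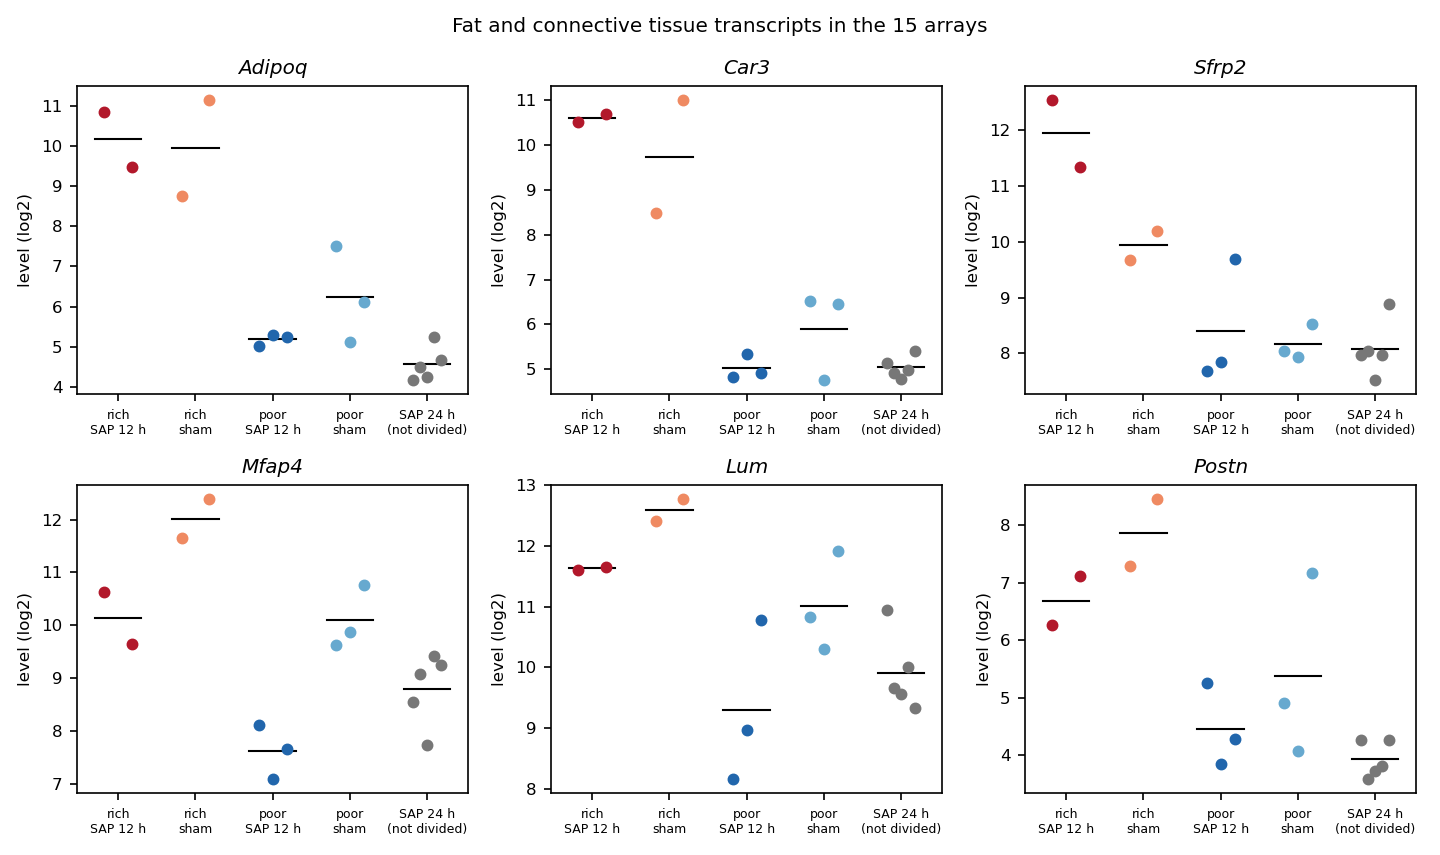
Levels of 2 fat transcripts (Adipoq, Car3), a fibroblast transcript (Sfrp2) and 3 matrix transcripts (Mfap4, Lum, Postn) in each of the 15 arrays (log2, vertical axis), by array class and group; points are arrays and bars are means. Adipoq and Car3 leave a gap between all atrium-rich and all atrium-poor arrays, whereas the matrix genes separate the classes only within each group.

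Postn, periostin, a matrix protein of valves and scars, was 6.26 and 7.12 log2 in the atrium-rich SAP 12 h arrays and 7.29 and 8.46 log2 in the atrium-rich sham arrays, against 3.85, 4.59 and 7.17 log2 in the atrium-poor arrays. Mfap4, a microfibril-associated protein, was 10.62, 9.64, 11.65 and 12.39 log2, against 7.08, 8.87 and 10.77 log2. Lum, the collagen-binding proteoglycan lumican, was 11.61, 11.66, 12.41 and 12.77 log2, against 8.16, 10.54 and 11.91 log2. In all 3 genes the highest atrium-poor array was sham replicate 5, which was also the atrium-poor array with the most Myl4 and Sln. The differences were 2.36, 2.22 and 1.95 log2. Mfap5 differed by 2.19 log2, the fibrillar collagen Col3a1 by 1.59 log2 and fibromodulin (Fmod) by 1.39 log2, all separating. Vcan (1.67 log2), Fbn1 (1.46 log2) and Fbln1 (1.40 log2) overlapped.

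Fibroblast genes ran the same way. Of 13 measured, 8 separated the classes upward and 0 downward, against 1.65% of all probe sets upward, and the median difference was 0.66 log2. Sfrp2, a secreted Wnt modulator, was 12.53, 11.34, 9.67 and 10.19 log2 in the atrium-rich arrays, against 7.69, 7.99 and 9.68 log2, a difference of 2.65 log2. Its highest atrium-poor array, SAP 12 h replicate 5, reached the level of the lowest atrium-rich sham array. Pdgfra, the platelet-derived growth factor receptor that marks fibroblasts, was 14.12, 13.01, 12.67 and 13.25 log2, against 11.83, 12.11 and 12.45 log2. Its difference was 1.12 log2, beside 1.01 for Gpx3, 0.84 for Mgp, 0.77 for Gsn and 0.66 for Ccn5.

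In the cartilage and valve list 3 of 11 separated upward and 0 downward, against 1.65% of all probe sets upward. The median difference was 0.36 log2. Prelp, a proteoglycan that anchors basement membranes, differed by 1.18 log2 and Cytl1, a cytokine-like protein of cartilage, by 0.87 log2. Of 11 measured genes of mesothelium and epicardium, the cell layer over the heart, 0 separated the classes in either direction. A positive difference within both groups was found in 8, or 72.7%, against 23.2% of all probe sets, and the median difference was 0.305 log2. The retinoic acid list had 1 of 11 separating upward, the retinol dehydrogenase Dhrs9 at 0.58 log2.

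Few nerve and conduction genes separated the classes, though their shares exceeded the 1.65% of all probe sets that separated upward. The upward shares were 7.7% of Schwann cell and glial, 7.4% of neuronal and 6.25% of conduction genes, each from 1 or 2 members. Of 13 measured Schwann cell and glial genes 1 separated upward, Egfl8, at 0.36 log2, and the median difference was 0.11 log2. Of 27 measured neuronal genes 2 separated upward and 0 downward, and the median difference was 0.03 log2. These were Prph, the peripheral nerve filament peripherin, and Slc6a2, the noradrenaline transporter of sympathetic nerve endings. Prph was 4.32, 3.70, 3.81 and 4.44 log2 in the atrium-rich arrays, against 3.26, 3.50 and 3.80 log2, and Slc6a2 was 4.83, 4.68, 4.74 and 4.62 log2, against 4.21, 4.42 and 4.53 log2. Both stood near the background guide in every array, with differences of 0.53 and 0.33 log2. Pmp22, a myelin protein also made outside nerve, differed by 0.66 log2 with overlap.

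Of 16 measured conduction and pacemaker genes, 1 separated upward and 0 downward, with a median difference of 0.17 log2. Cacna2d2, a calcium channel subunit, was 6.90, 5.80, 6.57 and 6.74 log2 in the atrium-rich arrays, against 5.22, 5.40 and 5.92 log2, a difference of 1.00 log2. Vsnl1, a calcium sensor, differed by 1.32 log2 and Bmp4 by 0.67 log2, both with overlap. Hcn4, the main pacemaker channel, was 6.60, 7.16, 5.97 and 6.81 log2 in the atrium-rich arrays, against 6.21, 6.95 and 7.08 log2. Its difference of -0.17 log2 was smaller than the spread within either class. In the list of adrenergic and muscarinic signalling, 1 of 12 separated upward, Gnao1, a G protein subunit, at 0.61 log2.

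**Figure D3:**
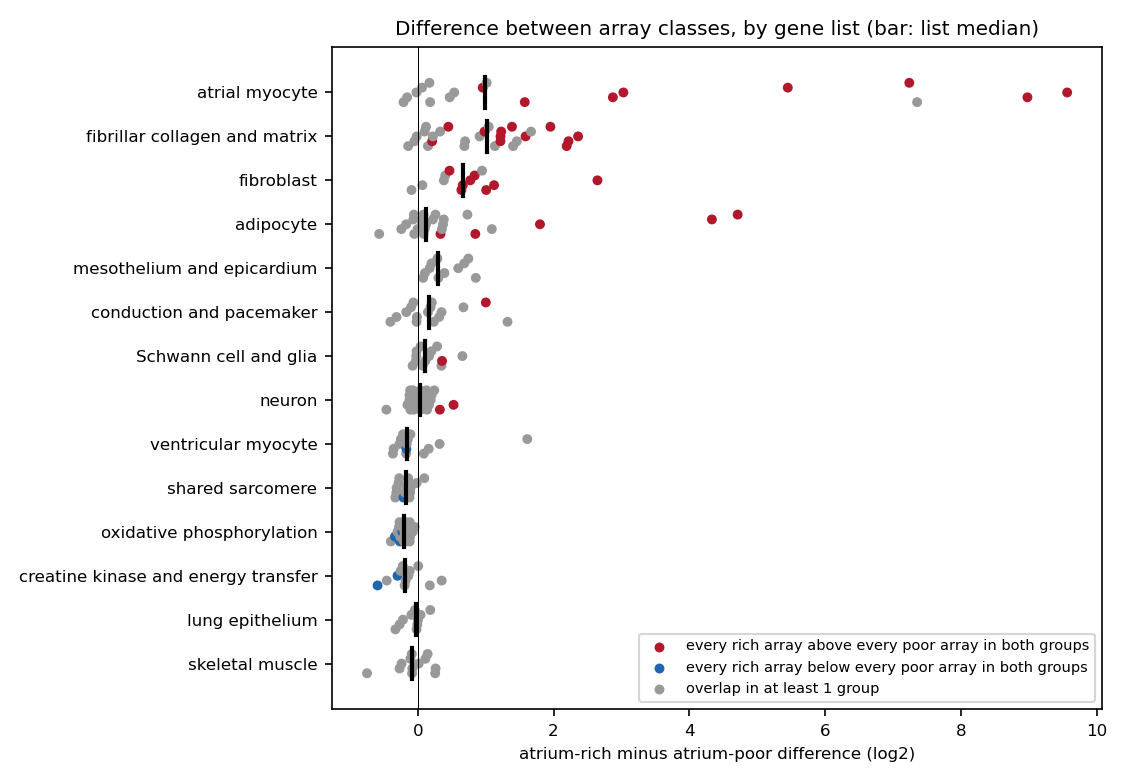
Atrium-rich minus atrium-poor difference (log2, horizontal axis) of each measured gene in 14 gene lists; red points separate the classes upward in both groups, blue points downward, grey points overlap, and black bars are list medians. The matrix median is 1.01 log2 and the fibroblast median 0.66 log2, whereas the ventricular median is -0.16 log2.

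The ventricular list differed little between the classes. Some members lay near the top of the scale, where differences may be too small, such as Myl3 and Pln. Their means at SAP 12 h were 19.51 and 19.15 log2, and the highest value of the table is 19.83 log2. Others did not, such as Irx4 and Irx5, at 8.62 and 5.01 log2. Of 14 measured ventricular genes 1 separated downward and 0 upward, and the median difference was -0.16 log2. With the replicate number as a block it was -0.04 log2, a value that rests on replicates 2 and 4 alone. The mean level of the list overlapped, at 13.13 to 13.26 log2 in the atrium-rich arrays and 13.15 to 13.36 log2 in the atrium-poor arrays, and its member Nppb had a difference of 1.61 log2. Pln was 19.11 and 19.12 log2 in the atrium-rich SAP 12 h arrays and 19.15 and 18.63 log2 in the atrium-rich sham arrays, against 19.15, 19.17 and 19.19 log2 in the atrium-poor arrays. Apart from sham replicate 3 the gap was within 0.08 log2, and the difference was -0.17 log2, or -0.04 log2 without that array and also after repeated quantile normalization. Myl2, the ventricular regulatory light chain, was 17.24, 17.62, 17.90 and 17.50 log2, against 17.60, 17.85 and 18.04 log2, a difference of -0.27 log2 with overlap. Myl3 (-0.17 log2), Myh7, the slow myosin heavy chain (-0.25 log2), and Kcnip2, of the transient outward potassium channel (-0.22 log2), overlapped too. The ventricular transcription factors Irx4 and Irx5 had differences of -0.36 and -0.35 log2, also with overlap.

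Genes of oxidative phosphorylation, the tricarboxylic acid cycle and the shared sarcomere had small negative differences in most members. Of 24 oxidative phosphorylation genes 3 separated downward and 0 upward, and 21, or 87.5%, had a negative difference within both groups, against 30.1% of all probe sets and 30.0% of the upper 50% of probe sets by mean level. The median difference was -0.20 log2. The mean level of the list overlapped, at 16.05 to 16.59 log2 in atrium-rich and 16.33 to 16.73 log2 in atrium-poor arrays. Its median level was 16.52 log2, against 8.76 log2 for the upper 50%, so the 2 are not matched in level. Medians of the oxidative phosphorylation, tricarboxylic acid cycle and shared sarcomere lists were not recomputed under other processing. Uqcrc1, a complex III core protein, was 13.89, 14.60, 15.02 and 14.91 log2 in the atrium-rich arrays, against 14.68, 14.94 and 15.16 log2, and differed by -0.34 log2. Cox5a, of complex IV, differed by -0.26 log2 and Uqcrfs1, the Rieske protein of complex III, by -0.23 log2. In the tricarboxylic acid cycle list 0 of 14 separated, and 11, or 78.6%, were negative within both groups, against 30.1% of all probe sets.

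Of 15 shared sarcomere genes 1 separated downward, Actn2, the Z-disc protein alpha-actinin 2, at -0.21 log2. A negative difference within both groups was found in 11, or 73.3%, against 30.1% of all probe sets. In the energy transfer list 2 of 12 separated downward. These were Slc2a4, the insulin-responsive glucose transporter, at -0.59 log2, and Ckm, muscle creatine kinase, at -0.30 log2. Slc2a4 was 12.30, 12.10, 13.83 and 13.64 log2 in the atrium-rich arrays, against 12.53, 13.87 and 14.19 log2, and its levels were lower in the atrium-rich SAP 12 h arrays than in the atrium-rich sham arrays. Of 11 calcium handling genes, the kinase gene Camk2d separated downward (-0.29 log2) and the sodium-calcium exchanger Slc8a1 upward (0.24 log2). Of 20 fatty acid oxidation genes 0 separated, and 5, or 25.0%, were negative within both groups, below the 30.1% of all probe sets. Their median difference was 0.06 log2 within SAP 12 h and -0.22 log2 within sham. Of 12 ion channel and connexin genes 0 separated in either direction. The immediate early list had 0 of 15 separating and 11, or 73.3%, negative within both groups, against 30.1% of all probe sets. Its median difference was -0.43 log2, with -0.28 within SAP 12 h and -0.55 within sham.

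The largest differences downward were not in ventricular muscle genes. Noct, the clock-controlled gene nocturnin, was 5.91 and 5.91 log2 in the atrium-rich SAP 12 h arrays and 7.82 and 7.76 log2 in the atrium-rich sham arrays, against 7.05, 7.23 and 6.97 log2 in the atrium-poor SAP 12 h arrays and 9.07, 9.16 and 9.01 log2 in the atrium-poor sham arrays. The difference was -1.23 log2, nearly the same within SAP 12 h (-1.17) and within sham (-1.29). Hpd, an enzyme of tyrosine breakdown, was 7.36, 7.39, 8.09 and 6.81 log2 in the atrium-rich arrays, against 7.42, 8.53 and 9.31 log2. Hsd11b1, which regenerates active glucocorticoid, was 12.22, 12.39, 10.95 and 11.60 log2, against 11.85, 12.52 and 13.78 log2. The differences were -1.10 log2 for Hpd and -0.95 log2 for Hsd11b1, and the classes overlapped when both groups were pooled. Ephx2, soluble epoxide hydrolase, differed by -1.06 log2. Tinagl1, a basement membrane protein, was 11.33, 10.97, 11.15 and 10.85 log2 in the atrium-rich arrays, against 11.55, 11.98 and 13.04 log2, with no overlap. The rest of the 12 lowest were Map2k3, Fdx1, Aadat, Sh2d3c, Ppp1r16b, Dusp7 and Afmid, with differences between -0.82 and -0.66 log2.

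Over the whole table the upward side held the large differences. Of the 382 probe sets that separated upward, 80 differed by at least 1 log2 and 23 by at least 2. Of the 354 that separated downward, 4 differed by at least 1 log2 and 0 by at least 2. Within SAP 12 h alone 10.6% of probe sets separated upward and 10.7% downward, and within sham alone 8.8% and 12.6%. Another 1.79% of probe sets separated the classes in opposite directions in the 2 groups, a share that pools both orders of direction. In the same direction in both groups, 1.65% separated upward and a further 1.53% downward. With 2 atrium-rich and 3 atrium-poor arrays in each group, a gene can separate by chance, and how many did so was not tested.

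**Figure D4:**
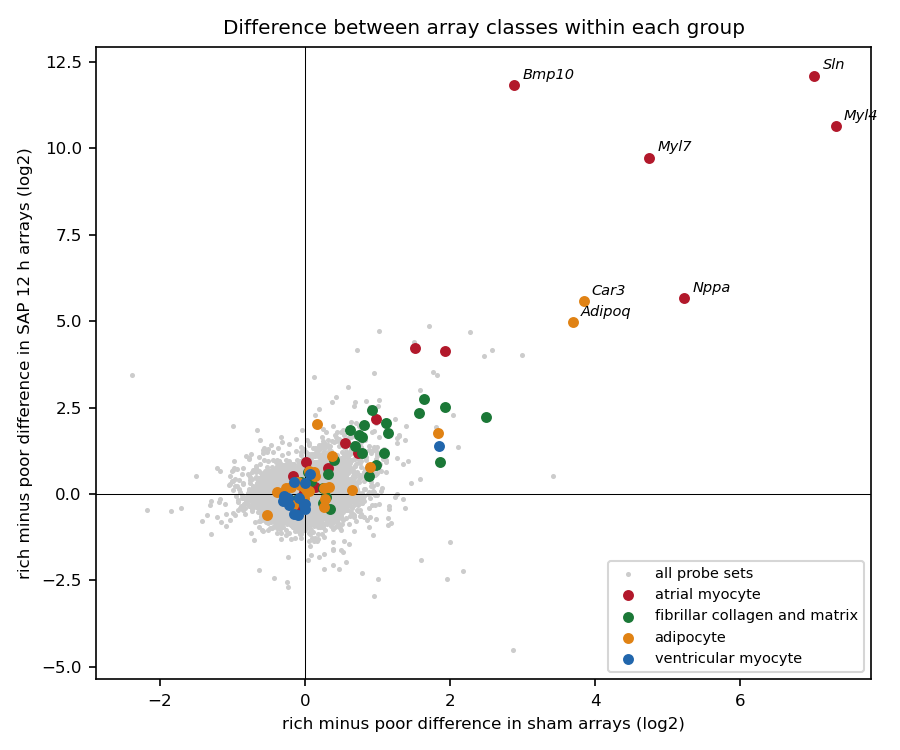
Atrium-rich minus atrium-poor difference of each of 23188 probe sets within sham (log2, horizontal axis) and within SAP 12 h (log2, vertical axis), with 4 gene lists in colour. Myl4, Sln, Myl7, Nppa, Adipoq and Car3 lie far out on both axes, Bmp10 mainly on the SAP 12 h axis (11.82 against 2.88 log2), and genes of the ventricular list other than Nppb lie near 0.

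Differences within SAP 12 h and within sham come from separate arrays. Across probe sets, which are not independent replicates, Pearson's r between them was 0.297 and Spearman's rho 0.0976, and without Myl4 and Sln, whose sign the choice of arrays fixed, 0.245 and 0.0974. Without these genes, 59 probe sets differed by at least 2 log2 within SAP 12 h and 49 of them had the same sign in sham, and of 17 in sham, 14 had the same sign within SAP 12 h. Over all probe sets the sign was the same for 53.4%.

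Lists for other tissues and cells gave few separating members. Over all probe sets 1.65% separated upward and 1.53% downward. Among macrophage and monocyte genes 1 of 15 separated upward, the scavenger receptor Cd163 at 0.86 log2, and among 6 lymphatic genes 1, Pdpn, podoplanin, at 1.50 log2. Of 12 lymphocyte and thymus genes 1 separated downward, Dntt, near background. Of 13 vascular smooth muscle genes 0 separated, and the median difference was -0.34 log2. Of these genes 8, or 61.5%, were negative within both groups, against 30.1% of all probe sets. In the lists of endocardium and endothelium (13), neutrophil (11), erythroid (6), lung epithelium (10), skeletal muscle (12) and interferon response (17) genes, 0 separated in either direction, where the number is that of measured genes.

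The labelled comparison of SAP 12 h with sham was fitted with the array class as a covariate. The classes are balanced in number, with 2 atrium-rich arrays of 5 in each group, but atrial transcript levels within a class were not. SAP 12 h minus sham was -2.987 log2 for Sln and -1.903 log2 for Myl4 within the atrium-poor class. Within the atrium-rich class it was 2.095 log2 for Sln and 1.425 log2 for Myl4. What this leaves in the calls was not tested. By limma, 439 probe sets were higher at SAP 12 h (1.89%) and 496 lower (2.14%) at adjusted p under 0.05, together 4.03% of those tested. The labels name no batch, slide or scan day. The genes that marked the classes most were not called. Myl7 had a log2 fold change of -2.40 ± 1.06 (SE, limma adjusted p = 0.297), Nppa of 0.26 ± 1.12 (adjusted p = 0.955), Adipoq of -0.55 ± 0.50 (adjusted p = 0.70) and Bmp10 of 3.55 ± 1.43 (adjusted p = 0.236). These values average the differences within the classes. In atrium-poor arrays these were -4.397 log2 for Myl7, 0.087 for Nppa, -1.063 for Adipoq and -0.023 for Bmp10. In atrium-rich arrays they were 0.600, 0.530, 0.215 and 8.915 log2, in the same order. A missing call is therefore not a finding of no difference at SAP 12 h.

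Of the 18 atrial genes 2 rose and 1 fell at SAP 12 h. Dkk3, a secreted Wnt modulator, was 12.01 ± 0.42 log2 at SAP 12 h and 10.86 ± 0.39 log2 in sham (SD, n = 5 arrays each; limma log2 fold change 1.15, adjusted p = 0.0105), and all 5 SAP 12 h arrays lay above all sham arrays. Kcnj5 rose by 1.15 log2 (limma adjusted p = 0.0277) and Kcna5 fell by 0.55 log2 (limma adjusted p = 0.0226). Each lost its call when any of 7 of the 10 arrays was omitted, and the limma adjusted p then reached 0.0876 for Kcnj5 (sham replicate 3 omitted) and 0.0649 for Kcna5 (sham replicate 2 omitted). Of 14 ventricular genes 1 rose, Gja1, the main gap junction gene of ventricular muscle, which was 17.71 ± 0.27 log2 at SAP 12 h and 16.39 ± 0.08 log2 in sham (SD, n = 5 arrays each; limma adjusted p = 2.58e-04). Corin rose by 2.02 log2 (limma adjusted p = 0.00698). In the fat list Cidea, a lipid droplet protein, and Lipe, hormone-sensitive lipase, rose and 0 fell; Lipe lost its call when any of 3 arrays was omitted, the limma adjusted p reaching 0.066 (sham replicate 2 omitted). In the Schwann cell, neuronal and conduction lists 0 genes were called by limma.

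Some matrix genes that were higher in atrium-rich arrays fell at SAP 12 h. Of the 28 matrix genes 0 rose and 5 fell at SAP 12 h, and the median log2 fold change was -0.34, against 0.01 over all probe sets. Other members had positive values without a call, such as Vcan at 1.15 log2 and Fn1 at 1.01 log2. Mfap4 was 10.62, 9.64, 8.11, 7.08 and 7.66 log2 at SAP 12 h, against 11.65, 12.39, 9.63, 9.88 and 10.77 log2 in sham, with the atrium-rich arrays named first in each group. The groups overlapped, since the atrium-rich SAP 12 h arrays reached the atrium-poor sham arrays, but within each class every SAP 12 h array lay below every sham array. The log2 fold change was -2.24 ± 0.28 (SE, limma adjusted p = 8.95e-04), and without the class in the model the adjusted p was 0.0831.

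**Figure D5:**
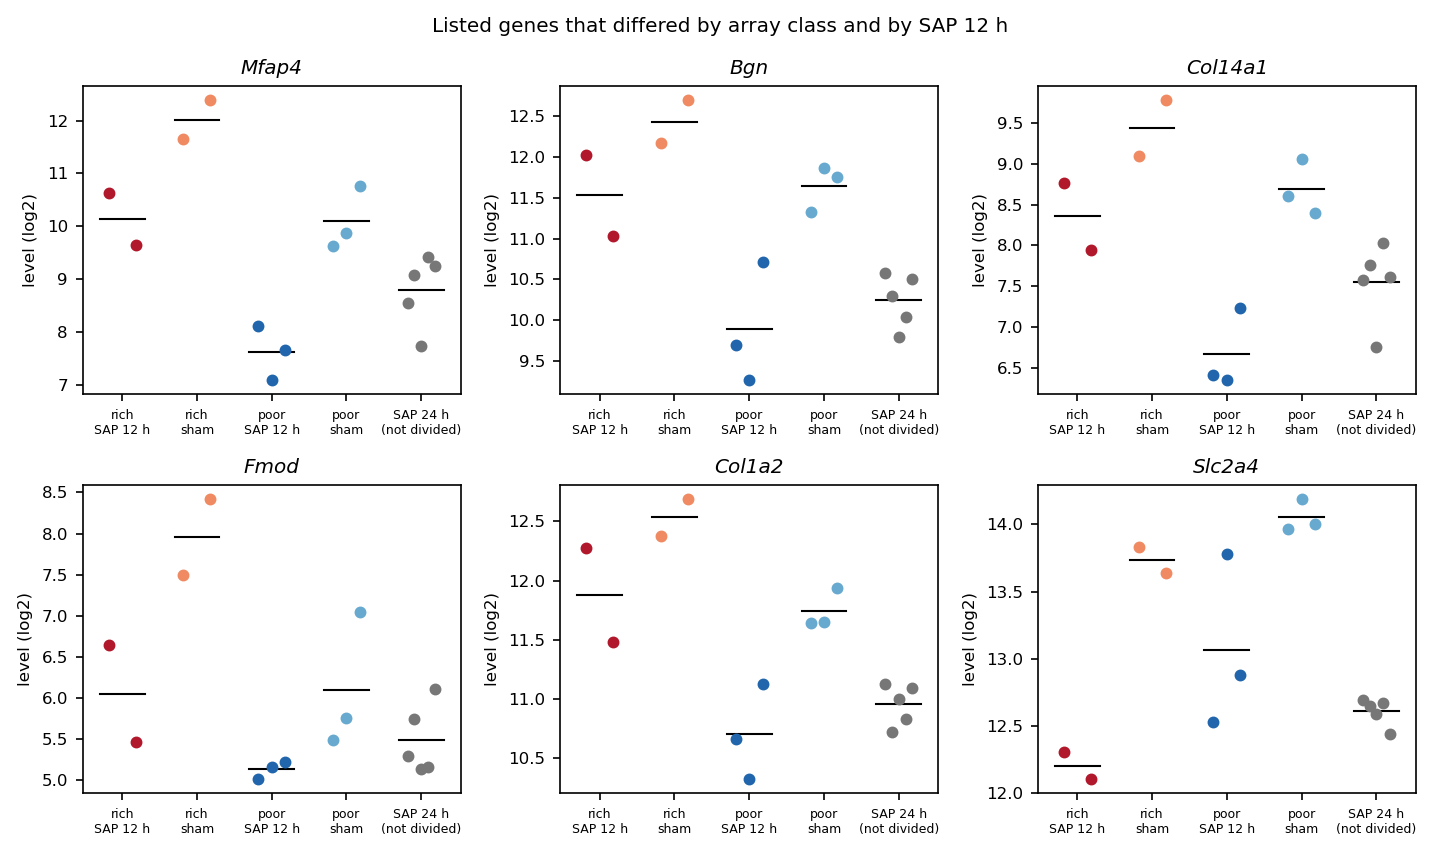
Levels of 6 listed genes (log2, vertical axis) in each of the 15 arrays, by array class and group; points are arrays and bars are means. Mfap4, Bgn, Col14a1, Fmod and Col1a2 are on average higher in atrium-rich than in atrium-poor arrays and lower at SAP 12 h than in sham of the same class, and Slc2a4 is lower in both comparisons.

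Col14a1, a fibril-associated collagen, fell by 1.64 log2 (limma adjusted p = 0.00373) and Bgn, the proteoglycan biglycan, fell by 1.42 log2 (limma adjusted p = 0.0143). Col1a2 fell by 0.89 log2 (limma adjusted p = 0.0192) and Fmod fell by 1.34 log2 (limma adjusted p = 0.035). Fmod lost its call when any of 7 arrays was omitted, the limma adjusted p reaching 0.102 (sham replicate 3 omitted), and Col1a2 when any of 3 was, reaching 0.0617 (sham replicate 5 omitted). Without the class in the model Bgn, Col1a2 and Fmod had limma adjusted p of 0.0978, 0.181 and 0.181. Within the atrium-poor class, Myl7 was 6.69, 12.62 and 8.02 log2 at SAP 12 h and 13.08, 13.54 and 13.90 log2 in sham, and its part in the matrix differences was not tested.

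Outside the matrix list, Noct and Slc2a4 were lower in atrium-rich arrays and fell at SAP 12 h. Noct was 6.61 ± 0.65 log2 at SAP 12 h and 8.56 ± 0.71 log2 in sham (SD, n = 5 arrays each), a log2 fold change of -1.95 ± 0.11 (SE, limma adjusted p = 1.80e-06), and every SAP 12 h array lay below every sham array. Slc2a4 fell by 1.21 log2 (limma adjusted p = 0.00571). Hsd11b1, lower in atrium-rich arrays, rose by 1.27 log2 at SAP 12 h (limma adjusted p = 0.00267). Among fibroblast genes the transcription factor Tcf21 rose by 0.86 log2 (limma adjusted p = 0.0138) and Dpep1 fell by 1.05 log2 (limma adjusted p = 0.0219). Dpep1 lost its call when any of 3 arrays was omitted, the adjusted p reaching 0.0695 (sham replicate 5 omitted). Of 15 macrophage genes 6 rose and 0 fell. Of these, Cd68 lost its call when any of 9 arrays was omitted, the limma adjusted p reaching 0.102 (sham replicate 1 omitted), and had an adjusted p of 0.0588 without the class and 0.0647 with the replicate number as a block. Cd163 lost its call when any of 4 arrays was omitted, the limma adjusted p reaching 0.0693 (sham replicate 3 omitted), and had an adjusted p of 0.11 without the class. Of 11 neutrophil genes 4 rose and 0 fell, S100a9 among them.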

How the data were processed

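RNA of rat hearts was measured on 15 arrays. The authors deposited log2 expression values per probe set, made with Affymetrix Expression Console per the submitters' processing notes, which give no version. RMA output is what the deposited table's name says it holds, and the log2 scale rests on that, so folds hold only on that scale and may be too small near its top. The 23188 probe sets were used unfiltered; 15049 had 1 gene symbol in GEO's platform annotation and 8139 are unnamed here, and a gene with several was represented by the one of highest mean level.

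The class difference was fitted by least squares with group as covariate and given no test. SAP 12 h was compared with sham in limma 3.58.1 (R 4.3.3; lmFit, eBayes) with class as covariate and Benjamini-Hochberg adjustment over all probe sets. The median standard error of that log2 fold change was 0.148; precision is limited by how many arrays there were. The code was tested on simulated data.

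Of 513 genes in 31 lists, 449 were measured. The members and lists were chosen with earlier results of these data known. Named genes were the atrial, ventricular, fat, nerve and conduction members, the 12 highest and 12 lowest separating genes, in each list up to 6 separating and 3 overlapping members with the largest differences, and listed genes called at SAP 12 h. The alternatives tried were centring, repeated quantile normalization, a filter on low levels, leaving out each array, a replicate block, averaging probe sets, the Myl4 and Sln level in place of classes, other limma settings, no class, a stricter threshold and all 15 arrays.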

Additional observations from a re-analysis of the deposited data

Results flagged for a closer look

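Of 126 groups of values examined, 7 (5.56%) held 1 array that stood apart from the others by a gap test of which chance marks about 1 in 20. Among the atrium-poor arrays these were the mean Schwann cell and glia level of 6.54 log2 in SAP 12 h replicate 5, and in SAP 12 h replicate 2 the mean conduction and pacemaker level of 6.18 log2, Mybphl at 4.08 log2 and Ppp1r16b at 9.49 log2. Among the atrium-rich arrays it was Dusp7 at 13.02 log2 in sham replicate 2. Among the SAP 24 h arrays these were Myl7 at 11.30 log2 in replicate 5 and Aadat at 7.08 log2 in replicate 2.

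The classes separated in opposite directions in the 2 groups for 5 listed genes. The atrium-rich minus atrium-poor difference of Acta1, skeletal alpha-actin, was -2.27 log2 within SAP 12 h and 0.78 log2 within sham. It was 0.51 and -0.37 log2 for Tcf21, 0.24 and -0.23 log2 for Pgam2, 0.16 and -0.19 log2 for Myom1 and -0.16 and 0.28 log2 for Lep, SAP 12 h first. That these differences differ between the groups was not tested.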

How the results depend on the processing

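The 61 genes whose class differences were recomputed, all of them genes that separated the classes, kept their sign in all 900 recomputations. For such a gene, leaving out 1 array cannot change the sign, so most of these outcomes were fixed in advance. Named genes with overlap, and the separating genes Tbx5 and Cacna1g, were not recomputed singly. Of the list medians and counts, 194 recomputed values stayed within the spread or within 1.5 times; of the 28 that did not, most omitted 1 array. Leaving out each array gave median differences of 0.562 to 0.857 log2 for atrial genes without Myl4 and Sln, -0.201 to -0.128 for ventricular, 0.094 to 0.236 for fat, 0.878 to 1.156 for matrix, 0.513 to 0.732 for fibroblast, 0.049 to 0.265 for Schwann cell, 0.003 to 0.057 for neuronal and 0.088 to 0.214 for conduction genes. It gave 479 to 826 probe sets separating upward and 482 to 957 downward, since fewer arrays separate more easily, r of 0.194 to 0.311, and 600 to 1083 called at SAP 12 h (287 to 499 higher, 309 to 584 lower). Without the lowest 50% of probe sets 229 separated downward, because fewer were counted, and r was 0.371; without Myl4 and Sln, an alternative chosen after seeing the data, r was 0.245. At adjusted p under 0.01 limma called 362 (177 higher, 185 lower). Replicate numbers shared by the groups do not pair the arrays (r of deviations from group means -0.168 to 0.258). With them as a replicate block the ventricular median was -0.038 log2. That value rests on replicates 2 and 4 alone, since only in these do the 2 groups' arrays differ in class. With this block 1004 probe sets were called, 787 of them among the 935. Without the class 861 were called, 820 of them among the 935.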

Other observations

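Among probe sets unnamed here, TC0100006041.rn.2 was 15.05, 13.51, 13.56 and 11.46 log2 in the atrium-rich arrays and between 9.23 and 10.39 log2 in the atrium-poor arrays, a difference of 3.38 log2. TC0100002000.rn.2 differed by 3.24 log2. The unnamed probe sets furthest in the other direction were TC1000000045.rn.2 at -0.99 log2 and TC0100003332.rn.2 at -0.90 log2.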
